A study of Mus musculus with 2 samples.

Results

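The Wnt pathway genes described here are 49 genes of the mouse, named by symbol: 13 ligands, 2 genes of ligand secretion, 10 Frizzled receptors, 5 co-receptors, 4 secreted inhibitors, 3 R-spondins, 8 cytoplasmic transducers and 4 nuclear effectors. Each symbol was found once among the 55536 gene entries of the GENCODE M21 annotation, of which 22028 are protein-coding. PolyA-plus RNA was sequenced from 2 pools of hindbrain of B6NCrl embryos at embryonic day 12.5, with both sexes mixed. Pool 1 (replicate 1) held the hindbrains of 120 embryos and pool 2 (replicate 2) those of 88 embryos, and 10 ng of RNA entered each library. There was 1 group and no treatment or mutant, so no comparison between conditions was possible, and the spread between the pools is the measure of error. Each pool averages over many embryos, so differences between single embryos are not seen.

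Wnt proteins are secreted, lipid-modified ligands that bind Frizzled receptors on the cell surface. With the co-receptors Lrp5 or Lrp6 they stop the destruction complex of Axin, Apc and Gsk3 kinase from marking beta-catenin for breakdown, and beta-catenin then acts in the nucleus with transcription factors of the Tcf and Lef family. Other Wnt signals run through Ror and Ryk receptors or through the planar cell polarity genes without beta-catenin. In the hindbrain the pathway is known for the growth and patterning of the dorsal neural tube and for axon guidance.

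The gene counts summed to 31469575 in pool 1 and 29261472 in pool 2, and ERCC spike-in RNAs took 3.31% and 4.25% of the counts of pool 1 and pool 2. Hindbrain identity was checked with Hoxa2, Hoxb2, Hoxd3 and Gbx2, and 4 of 4 were at 1 TPM or more in both pools (TPM, the deposited transcript abundance). This limit is a low one, which 61.8% of protein-coding genes pass. The 4 genes summed to 175 TPM in pool 1 and 223 TPM in pool 2, and 4 of 4 were higher in pool 2. The tissue also held markers of other cell types: 7 of 7 mesenchymal and meningeal genes and 5 of 5 endothelial genes were at 1 TPM or more in both pools. The 6 markers of radial glia and progenitors summed to 2599 TPM in pool 1 and 2391 TPM in pool 2, and the 5 markers of postmitotic neurons to 2076 and 2141 TPM. In bulk tissue, fewer cells of a type and less RNA per cell cannot be told apart.

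In all, 46 of the 49 genes were at 1 TPM or more in both pools, against 61.8% of protein-coding genes. The median gene of the 49 had 13.3 TPM, averaged over the pools, and the median of the 13619 protein-coding genes past that limit was 21.8 TPM. TPM is scaled for annotated transcript length and depth, so levels of different genes were set side by side on it. RNA was primed with oligo-dT, and the evenness of coverage along transcripts was not tested. Orders between genes of unlike transcript length are therefore less certain. Neighbours in the order of levels were called separate where both pools of one gene lay above both pools of the other, which was so for 30 of 41 neighbouring pairs within the classes. These levels count all transcripts of a gene, and some of the orders turn by coding transcripts alone.

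**Figure D1:**
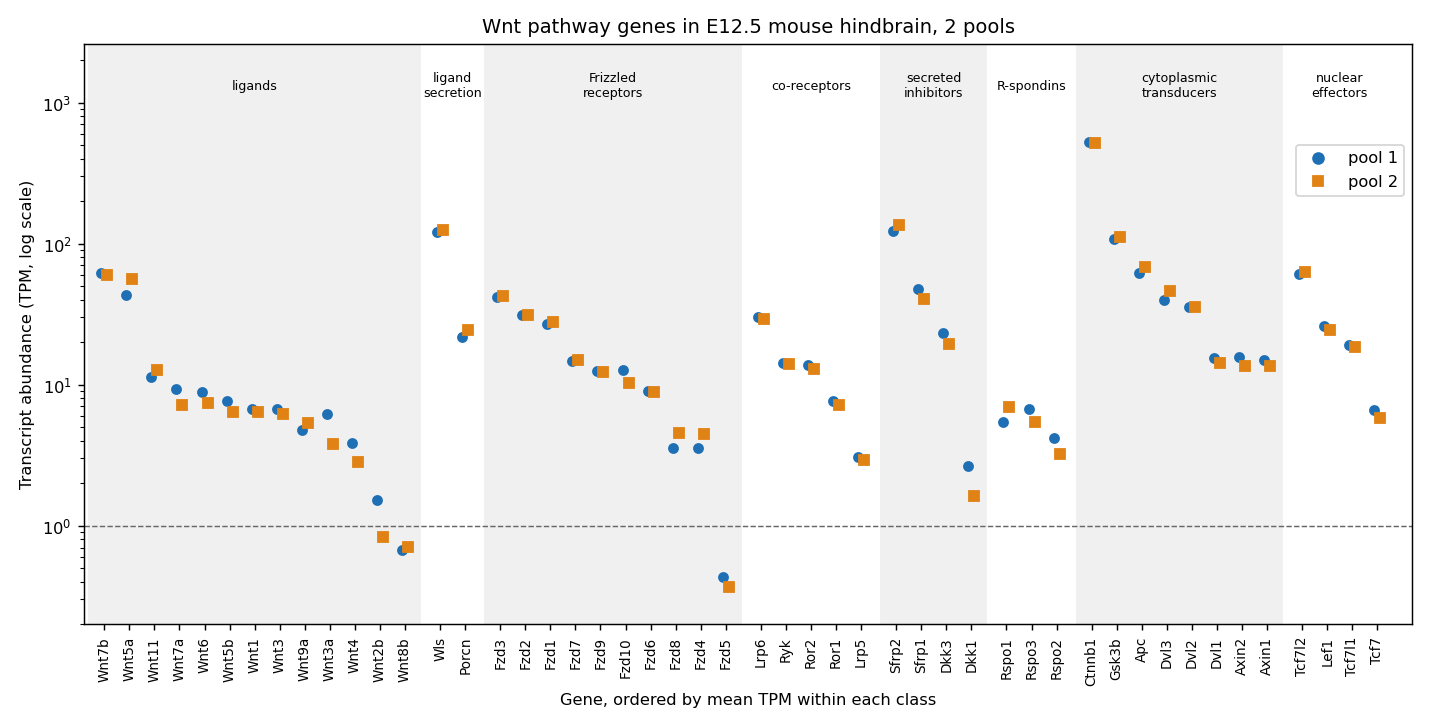
Transcript abundance (TPM, log scale) of the 49 genes in pool 1 (circles) and pool 2 (squares), ordered by mean level within each class. The dashed line marks 1 TPM; Wnt8b and Fzd5 lie under it in both pools and Wnt2b in pool 2, and Ctnnb1 is the highest of the 49.

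Of the 13 ligands, 11 were at 1 TPM or more in both pools, and the median ligand had 6.56 TPM. The ligand genes summed to 172 TPM in pool 1 and 176 TPM in pool 2. Wnt7b, a ligand of the neural tube that also acts on the blood vessels of the brain, had 61.5 TPM in pool 1 and 60.1 TPM in pool 2. Wnt5a, the best known ligand of signalling without beta-catenin, had 42.9 TPM in pool 1 and 55.8 TPM in pool 2. Together Wnt7b and Wnt5a made up most of the ligand mRNA: the first held 35.0% ± 1.1 and the second 28.3% ± 4.8 of the summed ligand TPM (SD, n = 2). The next ligand, Wnt11, also known for signals without beta-catenin, had 11.4 TPM in pool 1 and 12.7 TPM in pool 2. Only 38.0% of the Wnt11 TPM in pool 1 and 39.7% in pool 2 was in transcripts annotated as protein-coding. By coding transcripts alone, Wnt11 lay below Wnt7a in both pools. Both pools of Wnt7b lay above both of Wnt5a, and both of Wnt5a above both of Wnt11.

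The next ligands fell into 2 runs within which neighbours did not separate. Wnt7a, the close relative of Wnt7b, had 9.26 TPM in pool 1 and 7.19 TPM in pool 2. This gap came with 1 short noncoding transcript (Wnt7a-203, 293 bases) that was listed at 2.30 TPM in pool 1 and at 0 in pool 2. The coding transcript Wnt7a-201 had 6.96 TPM in pool 1 and 7.19 TPM in pool 2, and the gene had 436 counts in pool 1 and 407 in pool 2. Wnt6 had 8.86 and 7.35 TPM in pools 1 and 2, and Wnt5b, a relative of Wnt5a, had 7.69 and 6.38 TPM. Wnt1, which marks the midbrain-hindbrain boundary and the dorsal midline, had 6.68 TPM in pool 1 and 6.43 TPM in pool 2. Wnt3 had 6.76 TPM in pool 1 and 6.17 TPM in pool 2. From Wnt7a down to Wnt3, no gene was separate from the next in the order, and Wnt3 was separate from Wnt9a. Wnt9a followed with 4.76 and 5.31 TPM in pools 1 and 2, then Wnt3a, a ligand of the dorsal midline, with 6.19 and 3.82 TPM, and Wnt4 with 3.88 and 2.84 TPM, and these neighbours did not separate either.

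At the foot of the order, Wnt2b had 1.51 TPM in pool 1 and 0.83 TPM in pool 2. Wnt8b, which is best known from the forebrain, was under 1 TPM in both pools, with 0.67 TPM and 17 counts in pool 1 and 0.71 TPM and 23 counts in pool 2. Most of the Wnt8b value was assigned to a noncoding transcript: the coding transcript Wnt8b-201 had 0.14 TPM in pool 1 and 0.29 TPM in pool 2.

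Ligand genes of the mouse lie partly in pairs, and 4 pairs within 100 kb of each other were found among these 13 and 6 other ligand genes (mm10, GENCODE M21). On chromosome 11, Wnt3a (chr11:59248033-59290752, minus strand) and Wnt9a (chr11:59306928-59333552, plus strand) lay 16.2 kb apart and were both at 1 TPM or more in both pools. On chromosome 15, Wnt1 (chr15:98789857-98793837) lay 11.7 kb from Wnt10b, which had 0.46 TPM in pool 1 and 0.70 TPM in pool 2. On chromosome 11, Wnt3 (chr11:103774150-103817957) lay 24.3 kb from Wnt9b, which had 0.68 TPM in pool 1 and 0.59 TPM in pool 2. In the pairs of Wnt1 and of Wnt3, 1 gene was above 6 TPM in both pools and its neighbour under 1 TPM in both. On chromosome 1, Wnt6 (chr1:74771892-74785322) lay 6.19 kb from Wnt10a, which had 1.76 TPM in pool 1 and 0.92 TPM in pool 2.

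**Figure D2:**
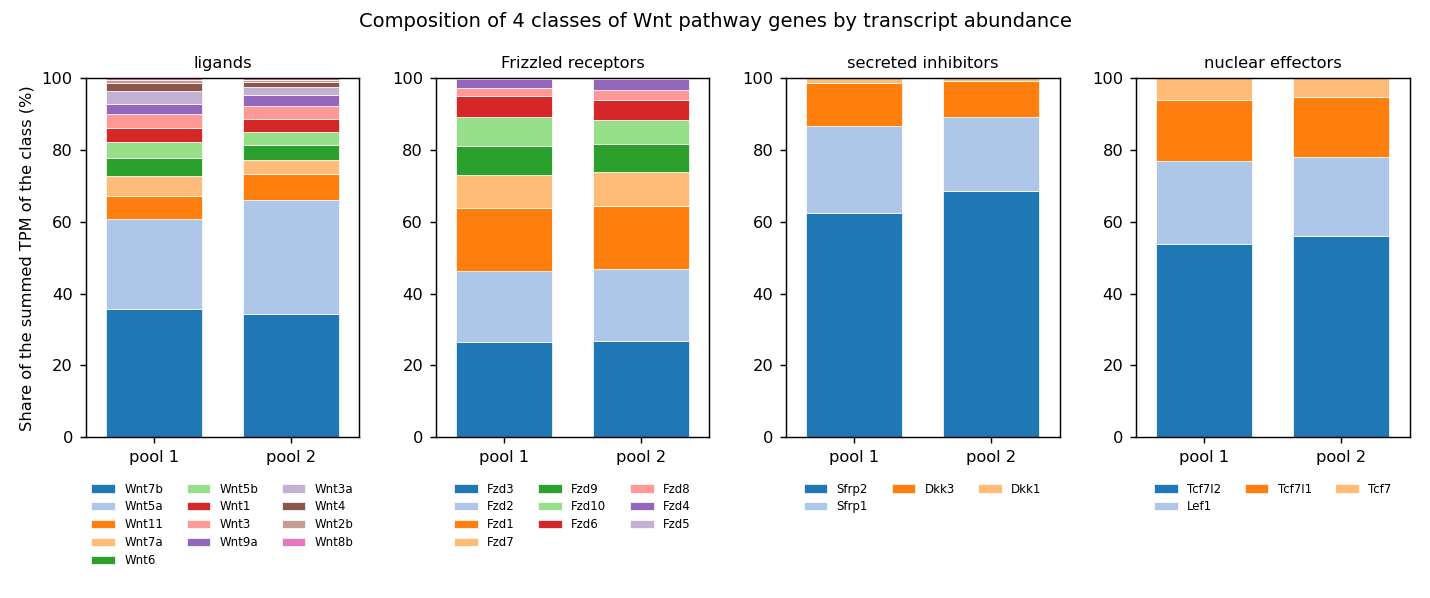
Share of each gene in the summed TPM of its class (%), for ligands, Frizzled receptors, secreted inhibitors and nuclear effectors, with pool 1 on the left and pool 2 on the right of each panel. Wnt7b and Wnt5a make up most of the ligand bar in both pools, and Sfrp2 and Tcf7l2 hold over 50% of theirs. The shares count all transcripts of a gene, coding or not.

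Secretion of Wnt proteins needs Porcn, the enzyme that attaches their lipid, and Wls, the carrier that takes them to the surface. Wls had 121 TPM in pool 1 and 124 TPM in pool 2 and stood at rank 1246 among the protein-coding genes. Porcn had 21.8 TPM in pool 1 and 24.3 TPM in pool 2. Wls was above every ligand gene in both pools.

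Of the 10 Frizzled receptor genes, 9 were at 1 TPM or more in both pools. The class summed to 156 TPM in pool 1 and 157 TPM in pool 2. Fzd3, known for axon guidance, led with 41.5 TPM in pool 1 and 42.3 TPM in pool 2, which was 26.8% ± 0.2 of the class (SD, n = 2). Fzd2 had 30.9 TPM in pool 1 and 31.3 TPM in pool 2, and Fzd1 had 27.1 TPM in pool 1 and 27.6 TPM in pool 2. These 3 genes were separate from each other and from the rest, with gaps between the pools of under 1 TPM each.

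Fzd7 had 14.7 and 14.9 TPM in pools 1 and 2 and was separate from Fzd9, with 12.5 and 12.3 TPM. Fzd10, a receptor of the dorsal neural tube, had 12.8 TPM in pool 1 and 10.2 TPM in pool 2 and did not separate from Fzd9. Fzd6, known for planar cell polarity, had 9.01 and 8.93 TPM in pools 1 and 2. Fzd8 had 3.58 and 4.57 TPM, and Fzd4, a receptor of blood vessels that also binds Norrin, had 3.58 and 4.49 TPM, and these receptors did not separate. Fzd5, best known from the eye field and forebrain, was the receptor under 1 TPM in both pools, with 0.43 TPM and 58.3 counts in pool 1 and 0.37 TPM and 39 counts in pool 2.

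The 5 co-receptors were all at 1 TPM or more and all separate from their neighbours in the order. Lrp6, the main co-receptor of the beta-catenin route, had 30.4 TPM in pool 1 and 29.3 TPM in pool 2, while its relative Lrp5 had 3.06 TPM in pool 1 and 2.91 TPM in pool 2. Ryk, an atypical kinase receptor of axon guidance, had 14.1 TPM in each pool. Ror2, a receptor for Wnt5a, had 13.8 TPM in pool 1 and 12.8 TPM in pool 2, and Ror1 had 7.68 and 7.17 TPM in pools 1 and 2. Of the Ryk TPM, 82.6% in pool 1 and 84.7% in pool 2 was in coding transcripts, against 100% of the Ror2 TPM in each pool. By coding transcripts alone, Ryk lay below Ror2 in both pools.

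The 4 secreted inhibitors summed to 197 TPM in each pool, against 172 TPM in pool 1 and 176 TPM in pool 2 for the ligand class. This gap was little more than the level of Dkk3 alone, so it depends on which genes are listed. The 6 other ligands, which summed to 5.17 and 4.22 TPM in pools 1 and 2, would narrow it. The 14 other antagonists, with 108 and 118 TPM, would widen it. Sfrp2, which binds Wnt proteins outside the cell, had 123 TPM in pool 1 and 135 TPM in pool 2 and held 65.6% ± 4.4 of the class (SD, n = 2). Sfrp1, of the same family, had 47.8 TPM in pool 1 and 40.6 TPM in pool 2. Dkk3, a divergent Dickkopf protein, had 23.4 TPM in pool 1 and 19.4 TPM in pool 2. Dkk1, which blocks Lrp5 and Lrp6, had 2.67 TPM in pool 1 and 1.63 TPM in pool 2. All 3 neighbouring pairs were separate.

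R-spondins raise Wnt signalling by keeping Frizzled receptors on the surface. Rspo1 had 5.42 TPM in pool 1 and 6.98 TPM in pool 2, and Rspo3 had 6.67 TPM in pool 1 and 5.43 TPM in pool 2. Their order was opposite in the pools, so they did not separate. Rspo2 was lower than both, with 4.18 TPM in pool 1 and 3.21 TPM in pool 2.

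Among the 8 cytoplasmic transducers, Ctnnb1 (beta-catenin, chr9:120929216-120960507, plus strand) had 524 TPM in pool 1 and 516 TPM in pool 2. It stood at rank 171 among the protein-coding genes and held 63.7% ± 0.9 of the class (SD, n = 2). Gsk3b, the kinase of the destruction complex, had 108 TPM in pool 1 and 111 TPM in pool 2. Apc, its large scaffold, had 61.6 TPM in pool 1 and 67.9 TPM in pool 2. Axin, the other scaffold, was lower: Axin1 had 15.0 TPM in pool 1 and 13.6 TPM in pool 2, and Axin2, which is also a target of the pathway, had 15.7 and 13.5 TPM.

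The Dishevelled genes, which carry the signal from the receptors, were led by Dvl3 with 39.9 TPM in pool 1 and 46.5 TPM in pool 2. Dvl2 had 35.6 TPM in each pool, and Dvl1 had 15.5 TPM in pool 1 and 14.3 TPM in pool 2. Dvl1 did not separate from Axin2, nor Axin2 from Axin1, and the other 5 pairs of the class did. This order counts all transcripts. Of the Apc TPM, 46.4% in pool 1 and 43.6% in pool 2 was in coding transcripts, against 89.3% and 90.9% for Dvl3. By coding transcripts alone, Apc lay below Dvl3 in both pools, and Dvl1 lay below both Axin genes in both pools.

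All 4 nuclear effectors were at 1 TPM or more, summed to 112 TPM in each pool, and were separate from each other. Tcf7l2 had 60.4 TPM in pool 1 and 62.6 TPM in pool 2 and held 55.0% ± 1.6 of the class (SD, n = 2). Of the Tcf7l2 TPM, 57.4% in pool 1 and 60.2% in pool 2 was in coding transcripts. By coding transcripts alone it was still the highest of the 4 in both pools, but no longer held most of the class. Lef1, an activating partner of beta-catenin, had 26.0 TPM in pool 1 and 24.5 TPM in pool 2. Tcf7l1, the family member best known as a repressor, had 19.2 TPM in pool 1 and 18.6 TPM in pool 2. Tcf7, best known from T cells, had 6.66 and 5.81 TPM in pools 1 and 2.

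The transcript tables divide these levels further. Of the 49 genes 15 have 1 annotated transcript and 34 have 2 or more, and 32 of those 34 also had 50 or more counts on average. In 12 of those 32 the most abundant transcript held under 60% of the gene's TPM in both pools, against 36.8% of the 12167 protein-coding genes counted in the same way, so the share was near the background. The median share assigned to protein-coding transcripts was 90.8% over the 32 and 88.9% over that background. Shares of TPM give short transcripts more weight than their reads do, and reads that fit several transcripts were divided by estimate.

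The 2 leading ligands were each divided between a pair of coding transcripts. For Wnt5a, transcript Wnt5a-202 held 42.3% in pool 1 and 43.0% in pool 2, and Wnt5a-201 held 37.9% in pool 1 and 35.0% in pool 2. These begin at different sites, Wnt5a-201 at chr14:28504750 and Wnt5a-202 at chr14:28511405. For Wnt7b, Wnt7b-202 held 48.8% in pool 1 and 45.5% in pool 2, and Wnt7b-201 held 45.1% in pool 1 and 49.4% in pool 2, so the leading transcript differed between the pools. The intervals deposited for Wnt7b-201 overlapped, at 24.0 to 30.2 TPM in pool 1 and 25.8 to 32.2 TPM in pool 2, as did those for Wnt7b-202.

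Several genes had large shares in transcripts that are not annotated as protein-coding. Of Wnt11, 38.0% in pool 1 and 39.7% in pool 2 was coding, and the leading transcript, Wnt11-202, annotated as a target of nonsense-mediated decay, held 44.2% and 43.4%. Of Wls, 58.6% in pool 1 and 60.2% in pool 2 was coding, with a decay transcript, Wls-206, at 29.4% and 27.7%. Of Apc, 46.4% in pool 1 and 43.6% in pool 2 was coding. Dvl1 was coding for 44.3% in pool 1 and 52.6% in pool 2, with the rest mainly in retained-intron transcripts. Tcf7l2, with 22 annotated transcripts, was coding for 57.4% in pool 1 and 60.2% in pool 2, and its leading transcript Tcf7l2-209 held 38.5% and 38.2%. In Lrp6, a retained-intron transcript of 941 bases, Lrp6-205, held 24.7% in pool 1 and 30.1% in pool 2, beside the full coding transcript Lrp6-201 of 9368 bases with 55.6% and 54.4%.

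Ctnnb1 was just past the 60% limit: the coding transcript Ctnnb1-201 held 60.3% in pool 1 and 62.5% in pool 2, which was 316 TPM and 322 TPM. A retained-intron transcript of 1292 bases at the 3′ end, Ctnnb1-215, held 31.2% in pool 1 and 32.5% in pool 2. Ryk was led by 2 coding transcripts, Ryk-201 with 48.3% and 45.9% and Ryk-203 with 34.3% and 38.8% in pools 1 and 2. Dvl3 was led by Dvl3-203 with 59.99% and 52.3%, and Axin2 by Axin2-201 with 56.5% and 59.5%.

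**Figure D3:**
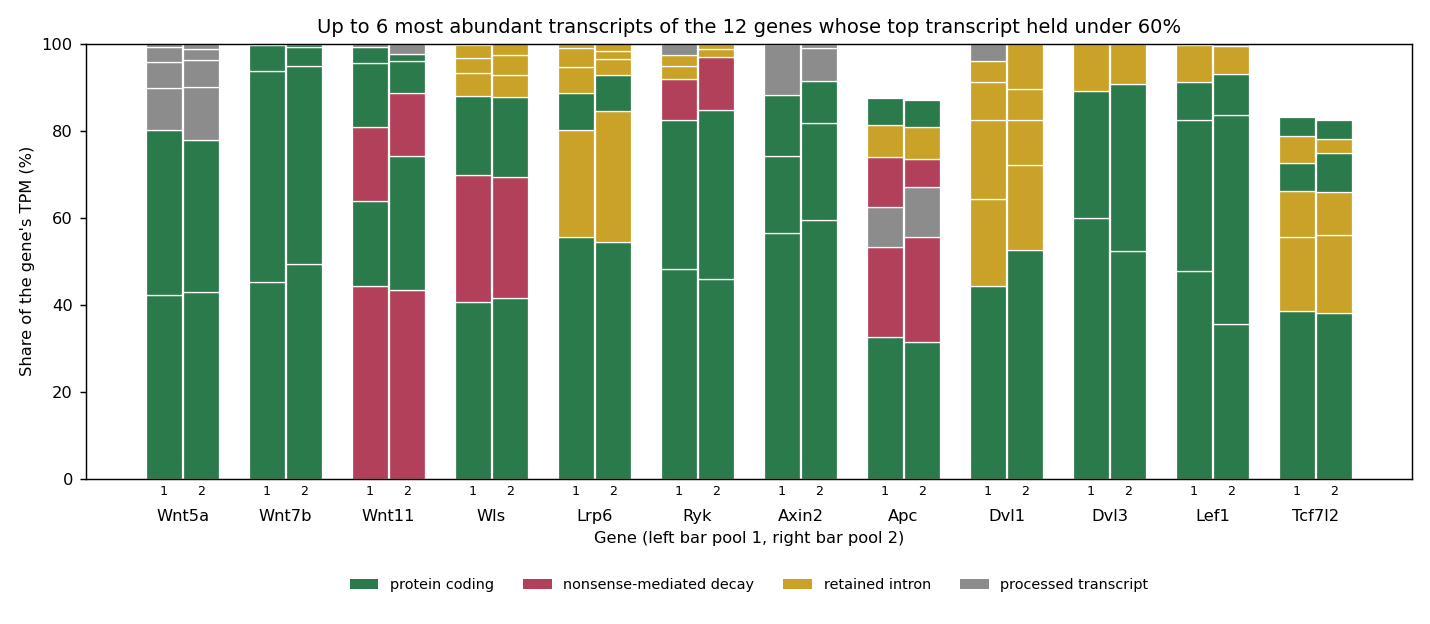
Shares of the gene's TPM (%) held by up to 6 transcripts, in the 12 genes whose most abundant transcript held under 60% in both pools, coloured by annotated transcript type, with pool 1 on the left and pool 2 on the right of each gene. Wnt5a and Wnt7b are divided mainly between coding transcripts, while Wnt11, Wls, Apc, Dvl1 and Tcf7l2 have large shares that are not protein-coding; the bars of Apc and Tcf7l2 end below 100% because they have more transcripts than are drawn.

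Lef1 is shown by the 2 coding exons in which its main transcripts differ (mm10, chromosome 3, plus strand, GENCODE M21). Exon 6, chr3:131191023-131191106, has 84 bases, a whole number of codons, and in human T cells it is known to be alternatively spliced. Exon 11 ends the coding sequence of some transcripts, in which chr3:131204933-131204964, 32 bases, is coding. Both are given from 5′ to 3′ in lower case.
Lef1 exon 6: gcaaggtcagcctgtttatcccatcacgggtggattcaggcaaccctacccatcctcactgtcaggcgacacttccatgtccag
Lef1 exon 11, coding bases: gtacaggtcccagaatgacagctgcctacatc
Of the coding Lef1 TPM, transcripts with exon 6 held 9.76% in pool 1 and 10.3% in pool 2, so the form without it predominated in both pools. Transcripts with exon 11 held 62.0% in pool 1 and 48.4% in pool 2, and the rest belonged to Lef1-204, which ends in another exon further downstream. Lef1-202, without exon 6 and with exon 11, led in pool 1 with 47.7% of the gene's TPM, against 35.5% in pool 2. Lef1-204 held 34.7% in pool 1 and led in pool 2 with 48.1%. The intervals deposited for the TPM of these transcripts overlapped between the pools, at 6.07 to 12.3 TPM in pool 1 and 8.29 to 14.2 TPM in pool 2 for Lef1-204, so the change of leader is within the error of the estimates; the files do not state the level of these intervals.

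Wnt11 is shown at its start sites, because most of its TPM came from transcripts that begin at 2 of them. RefSeq promoter windows (GRCm38.p6) of 300 bases, from 250 bases before to 50 after the start, were matched by symbol for 34 of the 49 genes, with 43 windows in all. The letters CTTTGAT, the core that Tcf and Lef factors bind, or ATCAAAG on the other strand, stood in 2 of the 43 windows (4.65%), against 1225 of all 32851 windows (3.73%). The windows were at a start of Wnt11 and a start of Wnt5b. The following windows are given 5′ to 3′ on the strand of the gene, in lower case with that match in capitals.
Wnt11 upstream start, chr7:98834862-98835161, plus strand: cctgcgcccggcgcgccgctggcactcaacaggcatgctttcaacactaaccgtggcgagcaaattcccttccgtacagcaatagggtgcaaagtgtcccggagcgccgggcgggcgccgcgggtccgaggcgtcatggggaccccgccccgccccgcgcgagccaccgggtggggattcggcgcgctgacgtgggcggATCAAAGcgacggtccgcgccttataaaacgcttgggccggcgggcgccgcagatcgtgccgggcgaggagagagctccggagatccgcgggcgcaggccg
Wnt11 downstream start, chr7:98838595-98838894, plus strand: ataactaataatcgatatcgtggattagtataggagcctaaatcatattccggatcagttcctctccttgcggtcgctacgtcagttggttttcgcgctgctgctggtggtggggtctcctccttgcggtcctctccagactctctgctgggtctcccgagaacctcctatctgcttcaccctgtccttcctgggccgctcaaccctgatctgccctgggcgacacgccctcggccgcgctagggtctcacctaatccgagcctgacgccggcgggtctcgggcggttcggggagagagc
Wnt5b start with the match, chr6:119449337-119449636, minus strand: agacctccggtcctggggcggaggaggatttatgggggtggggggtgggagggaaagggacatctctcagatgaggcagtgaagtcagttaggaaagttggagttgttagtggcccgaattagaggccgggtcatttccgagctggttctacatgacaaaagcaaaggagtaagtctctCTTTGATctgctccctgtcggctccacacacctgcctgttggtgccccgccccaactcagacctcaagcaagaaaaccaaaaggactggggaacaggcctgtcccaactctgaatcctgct
In the upstream Wnt11 window the match begins 51 bases before the start site. Transcripts from that start held 62.6% of the Wnt11 TPM in pool 1 and 52.2% in pool 2, and those from the downstream start, whose window lacks these letters, held 36.6% and 45.4%. The remaining transcript, Wnt11-206, begins elsewhere and held 0.791% and 2.36%. Wnt11-202, the decay transcript, made up most of the upstream TPM. The longest coding sequence, 1062 bases, is in Wnt11-201 from the upstream start and Wnt11-205 from the downstream start. In pools 1 and 2, Wnt11-201 was listed at 0.40 and 0.20 TPM, against 2.24 and 3.92 TPM for Wnt11-205. Their deposited intervals overlapped in pool 1 (0.171 to 0.666 and 0.423 to 3.69 TPM) but not in pool 2. By these values, that sequence came mainly from the start without the match. The downstream start of Wnt5b that has the match, with 1 transcript, Wnt5b-201, was listed at 0 in pool 1 and had 0.89 TPM in pool 2, where it held 13.9% of the gene. The deposited interval of that transcript ran up to 0.917 TPM in pool 1 and from 0.0397 to 1.99 TPM in pool 2, so the pools overlapped. The start furthest upstream, with the window chr6:119544298-119544597, held 100% of Wnt5b in pool 1 and 81.2% in pool 2. A match of letters is a description and shows no binding.

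The pools were compared through expected counts scaled by TMM, as the ratio of pool 1 over pool 2, in the 47 genes with 50 or more counts on average. With 1 library per pool this has no test, and the 95% intervals of the ratios (exact binomial, Clopper-Pearson) cover counting error only. Over these 47 genes the median size of the log2 ratio was 0.11, and it was 0.10 over all 14989 genes with as many counts. The interval excluded a ratio of 1 for 19 of the 47 genes, against 35.0% of all genes, so the pools differed by more than counting error here about as often as elsewhere.

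Of the 47 genes, 3 were 1.5-fold or more higher in pool 1 than in pool 2, against 1.63% of all genes, and 0 were 1.5-fold or more higher in pool 2, against 1.80%. These were Wnt2b, Wnt3a and Dkk1, all of low abundance. Wnt2b had 92 counts in pool 1 and 47 in pool 2, and its ratio was 1.81 (interval 1.27 to 2.64). Wnt3a had 329 counts in pool 1 and 187 in pool 2, and its ratio was 1.63 (interval 1.36 to 1.97). Dkk1 had 124 counts in pool 1 and 70 in pool 2, and its ratio was 1.64 (interval 1.22 to 2.24). The lower ends of these intervals lie under 1.5, and none of the 3 reached 2-fold.

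Markers of other cell types moved with the pools too. The 6 surface epithelium markers summed to 112 TPM in pool 1 and 82.4 TPM in pool 2, with 3 of 6 higher in pool 1 by 1.5-fold or more and 1 of 6 higher in pool 2. The 5 choroid plexus and roof plate markers summed to 354 TPM in pool 1 and 413 TPM in pool 2. Of these, 3 were higher in pool 1 and 2 were higher in pool 2. By 1.5-fold or more, 1 was higher in pool 1 and 0 in pool 2. The 6 skeletal muscle markers summed to 27.7 TPM in pool 1 and 138 TPM in pool 2, with 6 of 6 higher in pool 2, and the 7 mesenchymal markers to 1269 TPM in pool 1 and 1655 TPM in pool 2. No marker of these lists was at 0 in both pools. Their part in the differences of Wnt2b, Wnt3a and Dkk1 was not tested.

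Among the genes with lower values in pool 1, Wnt5a had a log2 ratio of -0.31, or 3580 counts in pool 1 and 4132 in pool 2, and Fzd4 and Fzd8 had -0.31 and -0.34. These directions turned with another scaling: scaled to the spike-ins, all genes shift by 0.37 on the log2 scale towards pool 1, the ratios became 0.06 for Wnt5a, 0.06 for Fzd4 and 0.03 for Fzd8, and 48 of the 49 genes were then higher in pool 1. Of the 4 genes with the highest mean TPM, the TMM log2 ratios were -0.00245 for Ctnnb1, -0.12 for Sfrp2, -0.02 for Wls and -0.06 for Gsk3b.

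**Figure D4:**
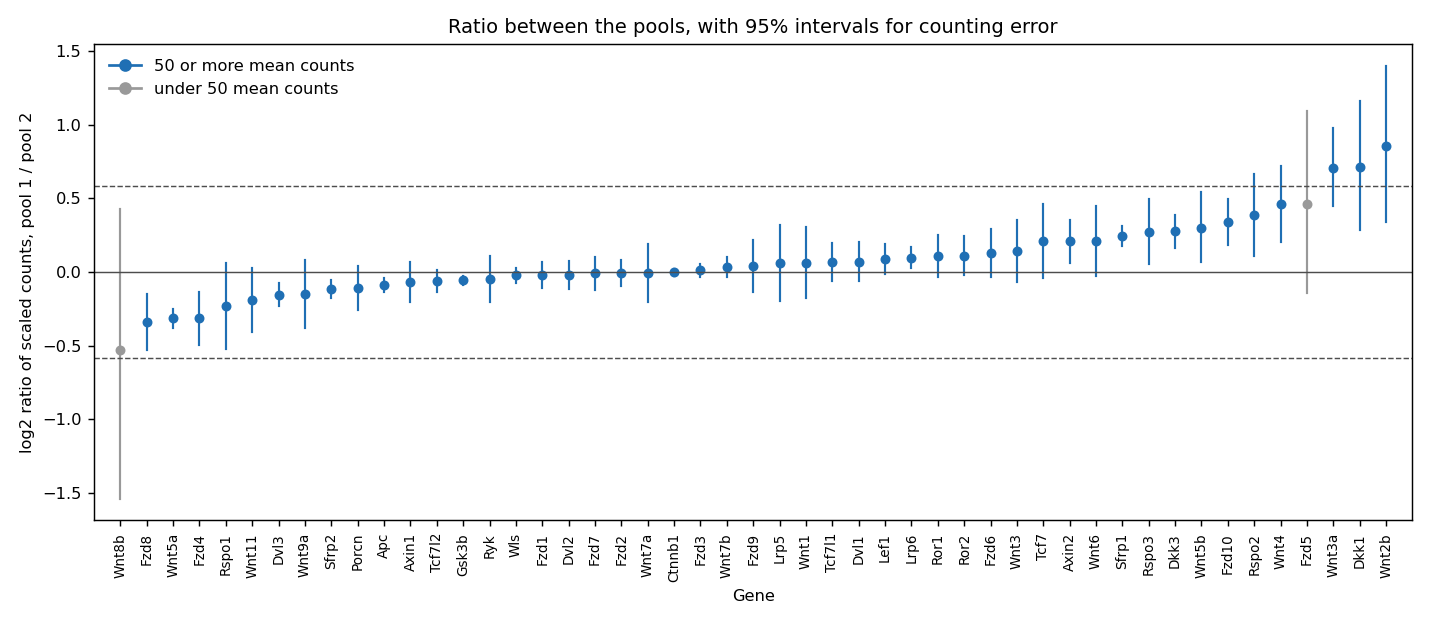
Log2 ratio of TMM-scaled counts, pool 1 over pool 2, for the 49 genes in rising order, with 95% intervals for counting error; grey points are the 2 genes with under 50 counts on average, and dashed lines mark 1.5-fold. Wnt3a, Dkk1 and Wnt2b lie above the upper line, and no gene with 50 or more counts lies below the lower one.

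The same reads had been quantified on an older annotation, GENCODE M4. Of the 47 genes at 1 TPM or more on either annotation, 0 differed 1.5-fold or more in mean TPM between M21 and M4, against 6.36% of protein-coding genes. The ratio of M21 over M4 had a median of 0.95 and ran from 0.70 for Fzd3 to 1.48 for Lrp6. Over all 13839 protein-coding genes compared in the same way the median was also 0.95. Wnt8b, which was under 1 TPM on both annotations, had a ratio of 2.06.

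In 13 of the 49 genes some exon bases are shared with a gene on the other strand. The sources used here do not state if reads were counted by strand. The levels of these genes and of their partners are therefore less certain. The largest such partners by level were Ulk4, which shares 759 bases (14.6% of the exon bases) with Ctnnb1 and had 127 TPM in pool 1 and 113 TPM in pool 2, and Acadvl, which shares 1151 bases (18.3%) with Dvl2 and had 48.0 and 45.9 TPM. An antisense gene, Gm43352, shares 1208 bases with Lef1 and had 3.48 TPM in pool 1 and 3.67 TPM in pool 2, and Gm2670 shares 358 bases with Wnt5a and had 2.35 and 3.36 TPM.

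The rest of the pathway was surveyed with 7 lists of 69 further genes, of which 58 were at 1 TPM or more in both pools, set beside the 61.8% of protein-coding genes. Of 6 other ligand genes 1 passed: Wnt2 had 1.25 TPM in pool 1 and 1.44 TPM in pool 2. Wnt16 had 0.72 and 0.57 TPM in pools 1 and 2. Wnt8a was the lowest, with 10 counts in pool 1 and 0 in pool 2, where a count of 0 allows up to 3 counts. The 6 genes together summed to 5.17 TPM in pool 1 and 4.22 TPM in pool 2.

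Of 14 other antagonists 11 passed, led by Frzb, a secreted Frizzled-related protein, with 18.0 TPM in pool 1 and 26.5 TPM in pool 2. Shisa2, which holds Frizzled receptors inside the cell, had 21.6 and 17.2 TPM in pools 1 and 2, and Kremen1, a receptor for Dkk1, had 14.0 and 13.7 TPM. Dkk4 and Sost were under 1 TPM in both pools. Of the R-spondin receptors and genes of Frizzled turnover 4 of 6 passed, led by Lgr4 with 13.4 TPM in pool 1 and 14.1 TPM in pool 2. Znrf3, a ligase that removes Frizzled receptors, had 6.41 and 6.26 TPM, and Lgr5 had 6.13 and 6.25 TPM, while Lgr6 and Rspo4 were under 1 TPM in both pools.

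Inside the cell the lists passed almost whole. All 14 other cytoplasmic genes passed, led by the casein kinases Csnk1a1 with 229 and 232 TPM and Csnk1e with 217 and 218 TPM in pools 1 and 2, and by Apc2, a neural relative of Apc, with 132 and 147 TPM. All 11 nuclear cofactors passed, led by the corepressor Ctbp1 with 393 and 407 TPM, then Ctnnbip1, which blocks beta-catenin from Tcf factors, with 67.4 and 60.6 TPM, and Bcl9 with 63.8 and 55.9 TPM. All 12 planar cell polarity genes passed, led by Ptk7 with 62.6 and 62.8 TPM, Celsr2 with 58.3 and 48.6 TPM and Vangl2 with 46.8 and 52.7 TPM.

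Of 12 genes known as targets of the pathway in other settings 11 passed. Ccnd1, a cell cycle gene, had 99.3 TPM in pool 1 and 94.3 TPM in pool 2, Nkd1, a feedback inhibitor, had 85.9 and 81.2 TPM, and Tnfrsf19 had 44.3 and 42.8 TPM. Cdx1 was under 1 TPM in both pools, with 3 counts in pool 1 and 1 in pool 2. Nkd1 depended on the annotation, and was 1.81 times as high on M21 as on M4. Of the 69 further genes, 61 had 50 or more counts on average, and in these 3 were 1.5-fold or more higher in pool 1, against 1.63% of all genes, and 1 was 1.5-fold or more higher in pool 2, against 1.80%. Named after their values were seen, these were Wnt10a, Notum and Rnf43 in pool 1 and Kremen2 in pool 2.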

How the data were processed

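PolyA-plus RNA-seq of 2 pools of hindbrain was analysed as 1 group of 2 replicates. Per the labels' protocols, mirVana was used for extraction and RNA was primed with oligo-dT. Fragmentation was by Nextera tagmentation, and ERCC spike-ins were used. No molecular identifiers are mentioned. The authors deposited, per pool, gene and transcript tables on mm10 with GENCODE M21 and M4, from transcriptome alignments, per the read-me files; for the program, nothing is stated in the sources used here. The authors deposited expected counts, which are estimated counts not scaled for depth. The authors also deposited TPM and FPKM, both scaled for length and depth, and bounds of transcript TPM. TPM gave levels, with M21 as the main annotation; FPKM served as an alternative. Expected counts were rounded, scaled by TMM (edgeR 4.0.16, R 4.3.3), given a prior of 0.5 and expressed as ratios for genes with 50 or more mean counts. DESeq2 1.42.0 gave alternative size factors. Tables were made with Python 3.11.15, pandas 2.3.3, numpy 2.4.6 and scipy 1.17.1, and figures with matplotlib 3.10.9. Ratio estimates were tested on simulated data. The pools differed by more than sampling noise (chi-square per gene 10.4 over 14989 genes) and were kept as 2 replicates. With 1 group, no test between conditions was run.

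The 49 genes and the other lists were chosen with earlier results of these data known. One list of marker genes is not reported here. All 49 are named; of each list of other pathway genes, the 3 highest by mean TPM and up to 2 of the lowest among those under 1 TPM in both pools are named. Marker lists are given by counts and sums. Alternatives changed the TPM limit, annotation, unit, scaling, count filter, prior, fold limit and transcript limit, and left out each pool.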

Additional observations from a re-analysis of the deposited data

How the results depend on the processing

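No paired analysis was possible because the study has 1 group of 2 pools. With 1 library per pool and no molecular identifiers, intervals cover counting error only, and genes with few counts, such as Wnt8b, Fzd5 and Wnt8a, have little precision. On GENCODE M4 in place of M21 some class medians moved by more than the small spread between the pools. The median TPM was 6.90 for ligands (main 6.56), 62.9 for ligand secretion (main 72.8) and 14.0 for co-receptors (main 13.3). For R-spondins it was 6.54 (main 6.05) and for nuclear effectors 24.1 (main 22.1). Over all 13839 protein-coding genes compared, the ratio of M21 over M4 had a median of 0.95. The cause of these moves was not tested. Leaving out replicate 1 or 2 gave 5.43 and 5.42 for the R-spondins, because Rspo1 and Rspo3 change places. The number of genes 1.5-fold or more higher in pool 1 was 11 with spike-in totals and 0 with a limit of 2-fold, against 3 in the main setting, and 21 genes changed direction with spike-in totals. Of the 6 other ligands, 4 passed a limit of 0.5 TPM and 0 passed 5 TPM, against 1 in the main setting, and 1 to 2 passed when 1 pool was left out. The other counts and medians stayed within 1.5 times or within the spread under the alternatives run. For medians with 1 pool left out, that spread comes from the same 2 pools. Staying within it is then almost fixed in advance and says nothing about stability.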
